A study of Rattus norvegicus with 9 samples.

Results

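The integrated stress response genes described here are 10 genes, chosen by symbol from the rat gene table of 20194 genes. They are Atf4, Atf5, Ddit3, Chac1, Trib3, Asns, Sesn2, Xbp1, Ppp1r15a and Psat1. All 10 had a value of at least 1 FPKM (fragment counts scaled to transcript length and library size) in at least 1 library, the filter that left 14305 genes for testing. RNA sequencing of dorsal root ganglion (DRG) tissue from male Sprague Dawley rats compared 3 groups of 3 libraries. The sham group had the operation without the nerve lesion. The SNI group had spared nerve injury, a model of neuropathic pain in which branches of the sciatic nerve are cut and 1 branch is left intact. The SNI + G15 group had the same injury and received G15, an antagonist of the G protein-coupled oestrogen receptor GPER, through an intrathecal catheter. Catheters were placed on day 5 after SNI and drugs in DMSO were given for 24 h. Catheter day 5 is recorded for the SNI and SNI + G15 libraries, and no catheter day for sham. In comparisons with sham, the injury and a catheter therefore cannot be told apart. The labels mark the sham and SNI libraries as controls for G15, do not state whether they received vehicle, and give no age. The study's methods name 3 rats per group, but its supplement gives a larger number for the same assay. A library may therefore hold RNA of more than 1 rat, and n = 3 and the SDs below refer to libraries.

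The integrated stress response is a signalling pathway that slows general protein synthesis when a cell lacks amino acids, holds misfolded proteins in the endoplasmic reticulum, carries double-stranded RNA or lacks haem. The kinases Eif2ak1 (HRI), Eif2ak2 (PKR), Eif2ak3 (PERK) and Eif2ak4 (GCN2) each sense a different stress and phosphorylate the initiation factor eIF2. Translation of most mRNAs then falls while that of a few, Atf4 among them, increases, and ATF4 switches on genes of amino acid supply, redox balance and, under lasting stress, cell death. Phosphorylation and translation leave no direct trace in mRNA counts, so the values below describe transcript levels only. In the DRG, axotomised sensory neurons switch on a regeneration programme marked by the related factor Atf3.

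Promoter sequences are shown for members and chaperone genes that hold a known stress element within 250 bases before the RefSeq start site (GRCr8). All 10 members matched a RefSeq promoter window of 300 bases. The CARE core TGATGNAA, the C/EBP-ATF element bound by ATF4 with C/EBP partners, was searched on both strands. It was present in 3.98% of the 33469 rat promoter windows and in 2 members, Chac1 and Trib3. Capitals mark the match, which lies on the reverse strand in both.

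Chac1: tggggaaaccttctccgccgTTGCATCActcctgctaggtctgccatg

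Trib3: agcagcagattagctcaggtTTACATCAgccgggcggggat

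The Chac1 stretch is at chr3:126795944-126795991, plus strand, and its match begins 167 bases before the start site. The Trib3 stretch is at chr3:161275534-161275574, minus strand, with a match that begins 21 bases before the start site. The ER stress element ERSE, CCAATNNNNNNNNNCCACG, is bound by ATF6 and XBP1 together with NF-Y. It was present in 0.0657% of windows and in 1 member, Xbp1. The same element was found in 6 of the 16 matched genes on the list of endoplasmic reticulum chaperones and folding factors, and the stretches of Hspa5 and Creld2 are printed with that of Xbp1 because these genes recur in the results.

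Xbp1: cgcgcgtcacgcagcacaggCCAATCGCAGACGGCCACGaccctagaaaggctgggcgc

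Hspa5: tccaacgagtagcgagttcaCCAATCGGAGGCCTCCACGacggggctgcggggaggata

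Creld2: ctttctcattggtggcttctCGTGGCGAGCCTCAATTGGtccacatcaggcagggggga

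These stretches lie at chr14:84604538-84604596, plus strand for Xbp1, at chr3:38452953-38453011, plus strand for Hspa5 and at chr7:121789219-121789277, plus strand for Creld2, where the match is on the reverse strand. ERSE-II, ATTGGNCCACG, was present in 0.0508% of windows, in no member and in 3 chaperone genes. A match gives the letters in this window only.

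Levels of different genes were compared per length, as FPKM in the sham libraries. Atf4, the central transcription factor of the response, stood at 184 ± 11.1 FPKM (mean ± SD, n = 3), above 96.9% of the tested genes. Atf5, a related factor also controlled at translation, followed at 107 ± 3.07 FPKM. Xbp1, a transcription factor of the unfolded protein response, stood at 54.6 ± 3.53 FPKM, and the asparagine synthetase gene Asns at 46.2 ± 0.779 FPKM. Ppp1r15a (GADD34), whose product directs dephosphorylation of eIF2, was at 29.3 ± 1.37 FPKM and Ddit3 (CHOP), a factor of stress-induced cell death, at 27.3 ± 1.49 FPKM. These 2 genes had overlapping ranges in the sham group. Chac1, an enzyme that degrades glutathione, was at 17.8 ± 1.32 FPKM, Psat1, of serine synthesis, at 12.3 ± 0.630 FPKM and the stress sensor Sesn2 at 4.33 ± 0.632 FPKM. Trib3, a pseudokinase that inhibits ATF4 and AKT, had the lowest level of the 10, at 0.733 ± 0.191 FPKM. All other neighbours in this order had ranges that did not overlap. In the SNI + G15 group Chac1 and Psat1 were the overlapping pair, at 8.81 ± 0.514 and 8.91 ± 0.723 FPKM. Chac1 thus moved from above Psat1 in every sham and SNI library to the level of Psat1.

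The libraries held 18484557 to 18756736 estimated counts. Within groups, libraries correlated across the 14305 genes at Pearson r = 0.991 to 0.994 on the log2(CPM + 1) scale, with the lowest value in the SNI + G15 group. Levels of a gene across libraries are given in CPM, the estimated counts scaled to a common library size with TMM factors of 0.981 to 1.01. Genes were called at an adjusted p below 0.05 in edgeR (quasi-likelihood F, Benjamini-Hochberg adjusted over all 14305 genes), and every adjusted p in the gene comparisons comes from that fit unless another tool is named. Each DRG library mixes neurons, glia, immune and connective tissue cells, so fewer cells of a type and less RNA per cell cannot be told apart.

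**Figure D1:**
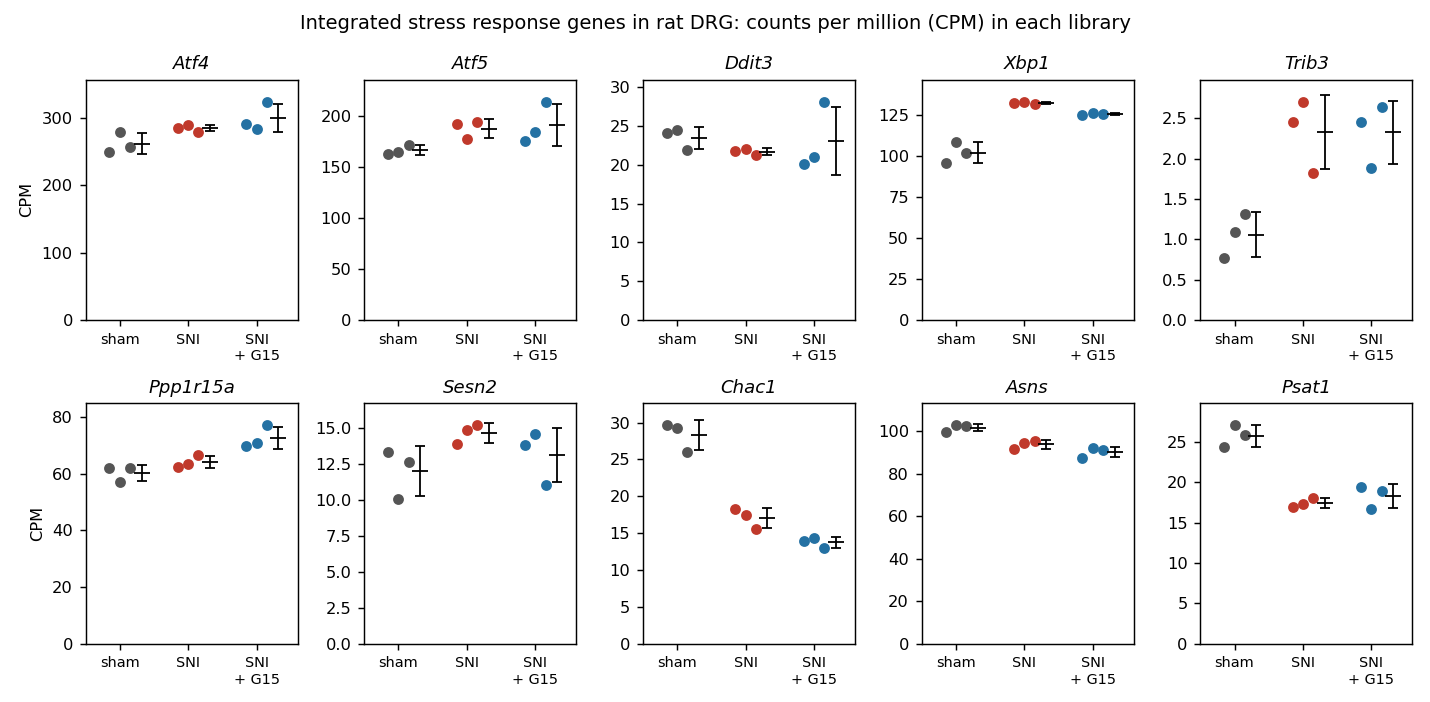
Level in CPM (estimated counts scaled to a common library size) of the 10 integrated stress response genes in each of the 9 DRG libraries, with each axis starting at 0. Points are libraries in the order of their replicate numbers, and the black bars give the group mean ± SD (n = 3). The 3 values of Chac1 and Psat1 in SNI lie below, and those of Trib3 and Xbp1 above, every sham value.

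The comparison of SNI with sham asks how the response genes differed between injured and sham animals. The members moved in both directions: Trib3, Xbp1, Sesn2, Atf5 and Atf4 were called higher, Chac1, Psat1 and Asns were called lower, and Ddit3 and Ppp1r15a did not pass the test. Thus 5 of 10 members were called higher where 23.3% of all tested genes were, and 3 of 10 were called lower where 22.4% were. The 3 values of the groups did not overlap for 9 of 10 members, against 55.3% of tested genes. Members and lists, here and below, were chosen with earlier results of these data known. Such shares beside the background are therefore a description and not a test. The median log2 fold change of the members was 0.11, and that of all tested genes was 0.00. The changes of Chac1, Psat1, Trib3 and Xbp1 were called in all 16 alternative analyses and those of the other 4 were not.

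Among the transcription factors, Xbp1 measured 95.4, 108 and 102 CPM in the sham libraries and 132, 133 and 131 CPM in the SNI libraries. The SNI values lay close together and above all sham values, a rise of 30.5% (log2 fold change 0.38 ± 0.05 (SE), adjusted p = 0.000103). Atf5 measured 163, 165 and 172 CPM in sham and 192, 177 and 194 CPM in SNI (log2 fold change 0.18 ± 0.05 (SE), adjusted p = 0.00781). The groups did not overlap, but the call was lost when all 9 libraries shared 1 fit (adjusted p = 0.0615). The estimated gene counts of Atf5, Ddit3 and Asns were fractional in each of the 9 libraries, so these 3 levels are less certain. The same held for Atf3, Slc1a5, Iars, Endog, Creb3, Mbtps2, Sesn3, Bcl2l11 and Dele1 among the genes named further on, for Cth in 8 libraries, and for Nupr1 and Hars in 3.

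For Atf4 itself the difference was small. Its values were 249, 279.66 and 257 CPM in sham and 285, 289 and 279.74 CPM in SNI (log2 fold change 0.13 ± 0.05 (SE), adjusted p = 0.0409). The highest sham library lay just under the lowest SNI library, and the call held in only 8 of 16 alternatives. It was lost without sham replicate 1 or 3 and without any of the SNI replicates, with the adjusted p up to 0.118 over the alternatives. Ddit3, which is activated late in sustained stress, measured 24.0, 24.5 and 21.8 CPM in sham and 21.8, 22.0 and 21.2 CPM in SNI. Its groups overlapped (log2 fold change -0.10 ± 0.06 (SE), adjusted p = 0.183), and its 95% confidence interval of -0.24 to 0.03 lay below that of Xbp1, 0.27 to 0.49.

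Trib3, a member that restrains the response, had the greatest relative change of the 10 genes. It measured 0.768, 1.09 and 1.32 CPM in sham and 2.46, 2.71 and 1.82 CPM in SNI, a 2.20-fold rise (log2 fold change 1.14 ± 0.27 (SE), adjusted p = 0.0061). These levels rest on estimated counts of 14, 20 and 24 in the sham libraries and 46, 51 and 34 in the SNI libraries. The interval of 0.54 to 1.74 on the log2 scale is accordingly wide. Ppp1r15a measured 62.0, 57.0 and 62.1 CPM in sham and 62.6, 63.5 and 66.5 CPM in SNI, with no overlap but below the threshold of the test (log2 fold change 0.10 ± 0.05 (SE), adjusted p = 0.13). Sesn2, which represses mTORC1 signalling when leucine is low, measured 13.3, 10.03 and 12.6 CPM in sham and 13.9, 14.9 and 15.2 CPM in SNI (log2 fold change 0.30 ± 0.10 (SE), adjusted p = 0.0316). Its call held in 11 of 16 alternatives and was lost without sham replicate 2, SNI replicate 2 or SNI replicate 3. It was also lost with DESeq2 (adjusted p = 0.0726).

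The metabolic members Chac1, Psat1 and Asns were called lower. Chac1 measured 29.6, 29.3 and 26.0 CPM in sham and 18.2, 17.4 and 15.6 CPM in SNI, and every SNI value lay far below every sham value. Chac1 fell by 39.3% (log2 fold change -0.72 ± 0.07 (SE), adjusted p = 2.21e-05). Psat1, the aminotransferase of serine synthesis, measured 24.4, 27.0 and 25.9 CPM in sham and 16.9, 17.3 and 18.1 CPM in SNI. It fell by 31.97% (log2 fold change -0.56 ± 0.06 (SE), adjusted p = 3.56e-05). Asns measured 99.8, 103 and 102 CPM in sham and 91.5, 94.7 and 95.4 CPM in SNI. This was a small difference (log2 fold change -0.11 ± 0.04 (SE), adjusted p = 0.0478), called in 6 of 16 alternatives and lost without sham replicate 2 or 3 and without any of the SNI replicates. The Asns call was also lost with DESeq2 (adjusted p = 0.0959). Chac1 and Trib3, the 2 members with the CARE core printed above, were called in opposite directions. The part of this element in either change was not tested.

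**Figure D2:**
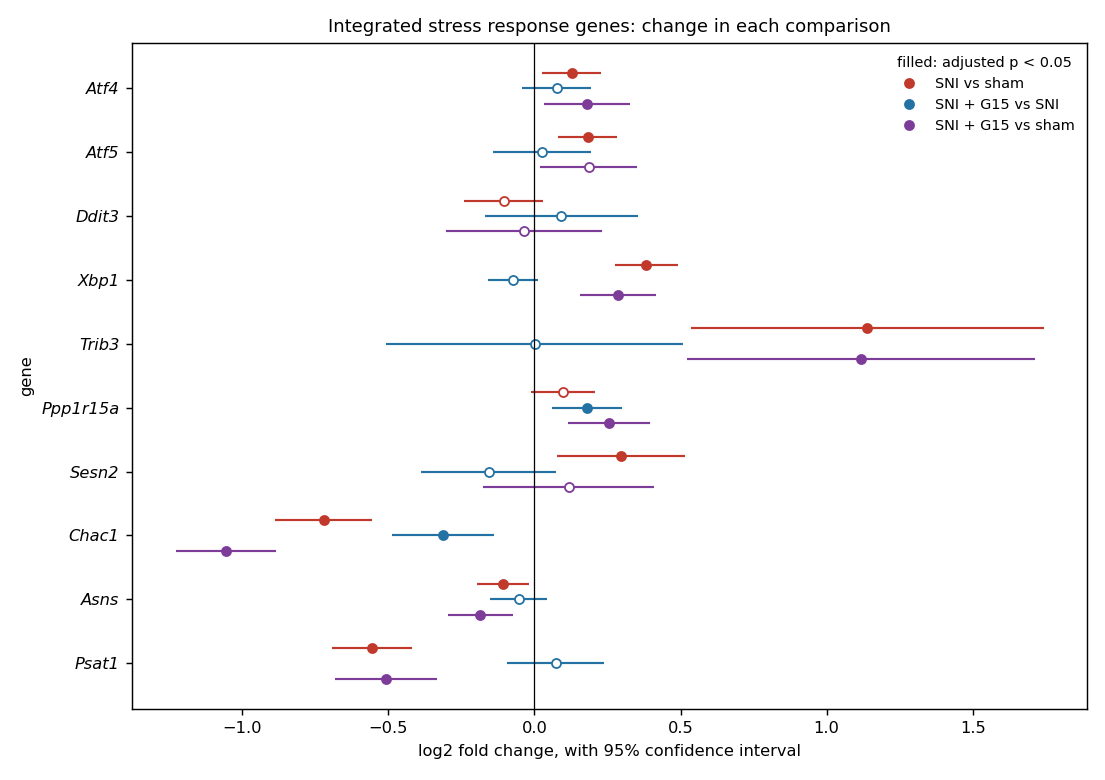
Log2 fold changes of the 10 genes in the 3 comparisons, with 95% confidence intervals from edgeR (n = 3 libraries per group). Filled points passed an adjusted p of 0.05. Chac1 lies below 0 in all 3 comparisons, while Trib3, Xbp1 and Psat1 lie near 0 in the comparison of SNI + G15 with SNI.

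The comparison of SNI + G15 with SNI asks how injured animals given the GPER antagonist differed from injured animals not given it. Because it is not stated whether the SNI libraries received vehicle, G15 and the infusion of DMSO cannot be told apart here. The words "with G15" below stand for this comparison. The same SNI libraries served in the comparison above, so the results of both are set side by side only. Chac1 was called lower and Ppp1r15a higher, and the other 8 members did not pass. The background was 7.25% of tested genes called lower and 7.98% called higher. Groups did not overlap for 3 of 10 members, Chac1, Xbp1 and Ppp1r15a, against 38.9% of tested genes. The median log2 fold change was 0.01 for the members and 0.01 for all tested genes.

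Chac1 measured 14.0, 14.3 and 13.0 CPM in the SNI + G15 libraries, all below the lowest SNI value of 15.6 CPM. It fell by 19.5% from SNI (log2 fold change -0.31 ± 0.08 (SE), adjusted p = 0.0294). The call was lost with DESeq2 (adjusted p = 0.0785) and without SNI replicate 1 or 2 or SNI + G15 replicate 1 or 3, where the adjusted p ran up to 0.103. Ppp1r15a measured 70.0, 71.0 and 77.2 CPM in SNI + G15, all above the SNI values (log2 fold change 0.18 ± 0.05 (SE), adjusted p = 0.0496). This call lay at the threshold and held in only 4 of 16 alternatives. It was lost without any of the SNI replicates, with adjusted p of 0.0969 to 0.161, and without SNI + G15 replicate 2 or 3, with 0.077 and 0.0525.

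Of the members that did not pass, Xbp1 measured 125, 126 and 125 CPM in SNI + G15, slightly below all SNI values (log2 fold change -0.07 ± 0.04 (SE), adjusted p = 0.209). Trib3 measured 2.46, 1.89 and 2.64 CPM and Psat1 19.4, 16.6 and 18.9 CPM, both overlapping the SNI range. The interval of the difference was -0.51 to 0.51 for Trib3 and -0.09 to 0.24 for Psat1. Sesn2 measured 13.8, 14.6 and 11.03 CPM and Asns 87.7, 92.2 and 91.3 CPM, also without a call.

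SNI + G15 replicate 3 gave the highest value of all 9 libraries for several members. Atf4 measured 291, 284 and 324 CPM, Atf5 176, 184 and 215 CPM and Ddit3 20.1, 21.1 and 28.1 CPM in SNI + G15, with replicate 3 last in each series. The same library was also highest for Ppp1r15a, lowest of all 9 libraries for Chac1 and lowest of its group for Sesn2. Without it, neither Chac1 (adjusted p = 0.0506) nor Ppp1r15a (adjusted p = 0.0525) was called against SNI. Against SNI the log2 fold change of Atf5 was 0.03 with this library and -0.06 (adjusted p = 0.391) without it. That of Ddit3 was 0.09 with it and -0.07 (adjusted p = 0.46) without it. The value of Atf5 also turned below 0 without SNI replicate 2 (-0.01, adjusted p = 0.934).

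Against sham, the SNI + G15 libraries showed 4 members called higher and 3 called lower. Among all tested genes 21.4% were called higher and 21.9% lower, and groups did not overlap for 8 of 10 members against 53.9% of tested genes. The median log2 fold change of the members was 0.15, against 0.00 for all tested genes. Chac1 fell by 51.9% (log2 fold change -1.06 ± 0.08 (SE), adjusted p = 3.65e-06) and Psat1 by 29.6% (log2 fold change -0.51 ± 0.08 (SE), adjusted p = 0.000541). Asns was called lower as well (log2 fold change -0.18 ± 0.05 (SE), adjusted p = 0.0139), a call lost without SNI + G15 replicate 1 (adjusted p = 0.0753).

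Trib3 was again higher than in sham (log2 fold change 1.12 ± 0.27 (SE), adjusted p = 0.00697), as were Xbp1 (log2 fold change 0.29 ± 0.06 (SE), adjusted p = 0.00276) and Ppp1r15a (log2 fold change 0.25 ± 0.06 (SE), adjusted p = 0.00812). Atf4 passed narrowly (log2 fold change 0.18 ± 0.07 (SE), adjusted p = 0.0483) and lost its call without sham replicate 1 or 3 or SNI + G15 replicate 1 or 3, where its value without the last was 0.13 (adjusted p = 0.0865). Atf5 (log2 fold change 0.19 ± 0.07 (SE), adjusted p = 0.0675), Sesn2 (log2 fold change 0.12 ± 0.13 (SE), adjusted p = 0.502) and Ddit3 (log2 fold change -0.04 ± 0.12 (SE), adjusted p = 0.828) did not pass. Atf5 was nevertheless called in 8 of the 16 alternatives.

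The transcript table divides the members into 18 RefSeq transcripts, of which 16 passed the same filter. Atf4, Chac1, Trib3, Sesn2 and Psat1 each had 1 transcript, so their gene values are their transcript values. Adjusted over 25998 transcripts, edgeR called 2 member transcripts between SNI and sham, those of Chac1 and Psat1, where 10.3% of all tested transcripts were called. It called 0 between SNI + G15 and SNI, with 3 below an unadjusted p of 0.05 and 0.662% of all transcripts called. Between SNI + G15 and sham it called 3, against 10.4% of all transcripts. The third was NM_013079.2 of Asns (log2 fold change -0.28 ± 0.06 (SE), adjusted p = 0.0437). Without any 1 of the 6 libraries, only 1 member transcript was called in that comparison.

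Xbp1 is the member for which isoforms matter most, because activated IRE1, another sensor of the unfolded protein response, removes a short stretch from its mRNA so that the active factor is made. Its 2 transcripts, NM_001004210.2 and NM_001271731.1, differed in length by 26.5 bases, as implied by their counts and FPKM, the second being the shorter. NM_001271731.1 was estimated at 75.4, 737 and 0 counts in sham, 536, 419 and 163 in SNI and 168, 55.5 and 115 in SNI + G15. Its share of the gene's counts was 4.33, 37.1 and 0% in sham, 21.7, 16.7 and 6.62% in SNI and 7.19, 2.38 and 4.92% in SNI + G15. The sham libraries alone spanned the whole range seen in the other groups. Exact two-sided permutation tests of the share gave p = 0.9 for SNI against sham, p = 0.2 for SNI + G15 against SNI and p = 0.9 for SNI + G15 against sham, where 3 against 3 libraries allow no p below 0.1. The rise of Xbp1 at the gene level could therefore not be assigned to either transcript. The 3 transcripts of Atf5 took 28.2%, 32.7% and 39.2% of its counts on average in sham, and the main transcript of Ppp1r15a, NM_133546.3, took 94.3%. For Atf5, Ddit3, Asns and Ppp1r15a the exact two-sided permutation p of all tested shares was 0.2 or above.

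**Figure D3:**
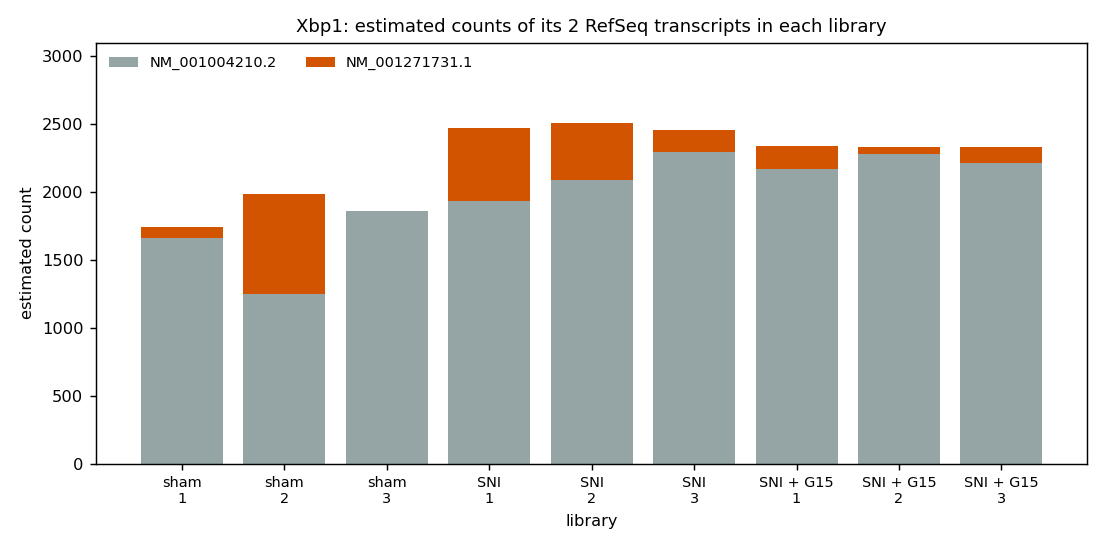
Estimated counts of the 2 RefSeq transcripts of Xbp1 in the 9 libraries, stacked so that the bar height is the gene count. The totals are steady within each group, at 2459 to 2507 in SNI, while the part given to NM_001271731.1 ranges from 0 to 737 among the sham libraries.

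Upstream of the members, the list of eIF2 kinases, eIF2 and eIF2B subunits and their regulators held 18 tested genes. Between SNI and sham 4 were called higher and 3 lower, with a median log2 fold change of -0.03. Neither share was above the background of 23.3% of tested genes called higher and 22.4% called lower. Eif2ak3, the kinase PERK that senses misfolded proteins in the endoplasmic reticulum, measured 41.4, 36.4 and 41.7 CPM in sham and 55.5, 58.4 and 55.2 CPM in SNI (log2 fold change 0.51 ± 0.06 (SE), adjusted p = 4.25e-05). Eif2ak2, the kinase PKR that binds double-stranded RNA, measured 54.3, 55.3 and 52.0 CPM in sham and 66.4, 63.3 and 69.2 CPM in SNI (log2 fold change 0.31 ± 0.05 (SE), adjusted p = 0.000535). Dnajc3, a co-chaperone that inhibits both kinases, rose as well (log2 fold change 0.39 ± 0.07 (SE), adjusted p = 0.000887), and Eif2b2, a subunit of the exchange factor that recharges eIF2, fell (log2 fold change -0.32 ± 0.07 (SE), adjusted p = 0.00301). Eif2ak4, the amino acid sensor GCN2, overlapped between groups (log2 fold change -0.04 ± 0.06 (SE), adjusted p = 0.616).

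With G15, 2 of the 18 genes were called against SNI, both lower, where 7.25% of tested genes were. Eif2ak2 measured 53.6, 51.9 and 55.7 CPM in SNI + G15, overlapping the sham range (log2 fold change -0.30 ± 0.05 (SE), adjusted p = 0.00615). Dnajc3 also fell (log2 fold change -0.22 ± 0.06 (SE), adjusted p = 0.0445), a call that held in 7 of 16 alternatives and was lost without any of the SNI replicates or SNI + G15 replicate 1 or 2, with adjusted p up to 0.195. Eif2ak3 measured 53.5, 51.0 and 48.4 CPM, below all SNI values, without passing (log2 fold change -0.15 ± 0.05 (SE), adjusted p = 0.101), and it stayed above sham (log2 fold change 0.34 ± 0.07 (SE), adjusted p = 0.00341). Eif2ak4 did not pass against SNI (log2 fold change -0.10 ± 0.06 (SE), adjusted p = 0.244).

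Factors that pair with ATF4 or share its sites were listed too. Of 8 tested genes, 6 were called higher and 2 lower in SNI than in sham (median 0.83), against 23.3% and 22.4% of tested genes. Atf3, the marker of axotomised neurons, measured 7.57, 8.29 and 6.97 CPM in sham and 269, 265 and 259 CPM in SNI, a 34.9-fold rise (log2 fold change 5.13 ± 0.06 (SE), adjusted p = 3.97e-12). The AP-1 factors Jun and Fos rose by 1.73 and 2.04 on the log2 scale, and Cebpd by 1.25. Between SNI + G15 and SNI 5 of the 8 were called, all higher (median 0.40), against 7.98% of tested genes. Cebpd measured 55.3, 53.8 and 55.0 CPM in SNI and 76.9, 82.7 and 88.0 CPM in SNI + G15 (log2 fold change 0.59 ± 0.06 (SE), adjusted p = 0.00034). Fos rose too (log2 fold change 0.52 ± 0.09 (SE), adjusted p = 0.00656), as did Cebpb (log2 fold change 0.48 ± 0.09 (SE), adjusted p = 0.0099), whose adjusted p was 0.052 without SNI replicate 2. Nupr1, a small stress-induced nuclear protein, was also called higher than in SNI (log2 fold change 0.75 ± 0.09 (SE), adjusted p = 0.00146). It measured 18.6 to 20.8 CPM in sham, 10.8 to 11.7 CPM in SNI and 16.8 to 21.5 CPM in SNI + G15. Its SNI values thus lay below every sham value, and its SNI + G15 range overlapped that of sham. Atf3 stayed at 254, 249.8 and 267 CPM in SNI + G15 (log2 fold change -0.04 ± 0.04 (SE), adjusted p = 0.516).

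The metabolic targets did not move as 1 group. On the list of serine, one-carbon and proline synthesis, 2 of 13 genes were called higher and 5 lower in SNI than in sham (median -0.10), against 23.3% of tested genes higher and 22.4% lower. Phgdh, the first enzyme of the serine pathway that also holds Psat1, measured 136, 153 and 146 CPM in sham and 105, 107 and 108 CPM in SNI (log2 fold change -0.44 ± 0.05 (SE), adjusted p = 3.76e-05). Pycr1, of proline synthesis, measured 6.09, 5.56 and 5.43 CPM in sham and 3.26, 3.19 and 2.67 CPM in SNI (log2 fold change -0.90 ± 0.14 (SE), adjusted p = 0.000399), and mitochondrial Mthfd1l fell by 0.39 on the log2 scale (adjusted p = 0.000133). Against these, Aldh1l2, a mitochondrial folate enzyme, measured 1.21, 2.07 and 2.42 CPM in sham and 7.85, 9.45 and 8.82 CPM in SNI (log2 fold change 2.20 ± 0.20 (SE), adjusted p = 7.2e-06). With G15, 2 of 13 were called against SNI, both higher, against 7.98% of tested genes. Phgdh measured 118, 119 and 127 CPM, between the sham and SNI ranges (log2 fold change 0.19 ± 0.04 (SE), adjusted p = 0.0243), and Cth, which makes cysteine, rose by 0.47 on the log2 scale (adjusted p = 0.0405). The call of Phgdh was lost without any of the SNI replicates, with adjusted p up to 0.0986. That of Cth was lost without any 1 of the 6 libraries and in 3 further alternatives, with adjusted p up to 0.139. Pycr1 and Got1 were the 2 genes among the 11 matched on this list whose promoters held the CARE core.

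**Figure D4:**
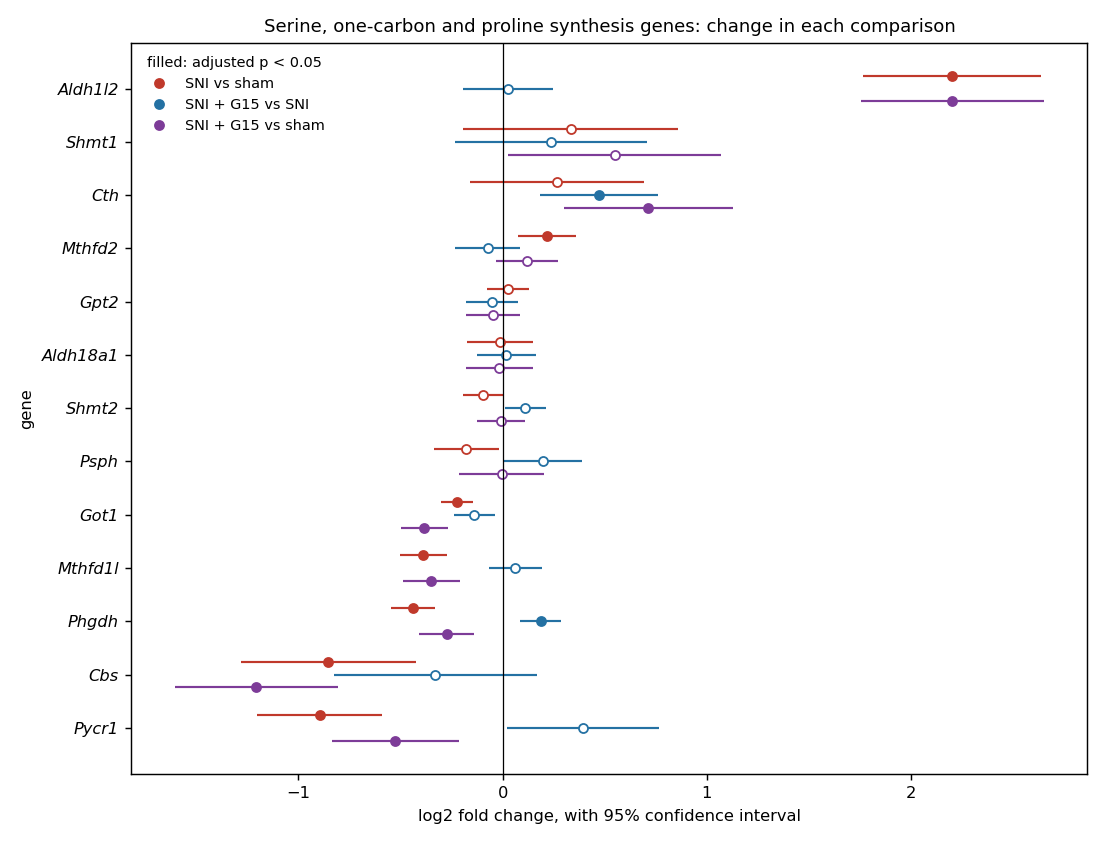
Log2 fold changes of the 13 genes of serine, one-carbon and proline synthesis in the 3 comparisons, with 95% confidence intervals from edgeR (n = 3 libraries per group) and filled points where the adjusted p was below 0.05. Aldh1l2 stands at 2.20 in SNI against sham, while 5 genes are called lower in the same comparison.

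The remaining lists were short, and their counts are to be read against the 23.3% of tested genes called higher and the 22.4% called lower between SNI and sham, and the 7.98% and 7.25% between SNI + G15 and SNI. Among 8 tested amino acid transporters, 3 were called higher and 1 lower in SNI than in sham. Slc1a5, a carrier of glutamine, measured 2.96, 2.84 and 3.02 CPM in sham and 7.21, 5.95 and 6.25 CPM in SNI (log2 fold change 1.15 ± 0.13 (SE), adjusted p = 5.28e-05). The log2 fold change was 0.22 (adjusted p = 0.00361) for Slc1a4, -0.14 (adjusted p = 0.00696) for Slc38a2 and 0.11 (adjusted p = 0.0296) for Slc3a2, whose call was lost without sham replicate 1 or any of the SNI replicates. Between SNI + G15 and SNI, 0 of the 8 were called by edgeR and 0 by DESeq2, and 2 lay below an unadjusted p of 0.05 in edgeR.

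Among 18 tRNA synthetases, which charge tRNAs with amino acids, 3 were called higher and 4 lower with SNI, neither share above the background. The log2 fold change was 0.38 (adjusted p = 2.96e-05) for Tars, 0.28 (adjusted p = 0.000657) for Cars, -0.24 (adjusted p = 0.000602) for Iars and -0.12 (adjusted p = 0.0362) for Lars. The Lars call was lost without sham replicate 1 or 2 or SNI replicate 1 or 3. Only Iars was called with G15, lower than in SNI (log2 fold change -0.17 ± 0.04 (SE), adjusted p = 0.0313), and 1 of 18 is not above the background either. The Iars call was lost without any of the SNI replicates or SNI + G15 replicate 2, with adjusted p up to 0.126.

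Of 15 further targets of ATF4, 5 were higher and 2 lower with SNI, and 2 were higher and 1 lower with G15. The translation repressor gene Eif4ebp1 rose both in SNI against sham (log2 fold change 0.79 ± 0.09 (SE), adjusted p = 3.47e-05) and in SNI + G15 against SNI (log2 fold change 0.42 ± 0.09 (SE), adjusted p = 0.0145), the latter call being lost without SNI replicate 2 or 3 (adjusted p up to 0.0554). With SNI the log2 fold change was 0.47 (adjusted p = 8.1e-05) for the lipoprotein receptor gene Vldlr, 0.26 (adjusted p = 0.00147) for Sesn3, a relative of Sesn2, and -0.36 (adjusted p = 0.000143) for the angiogenic factor gene Vegfa. With G15 it was 0.28 (adjusted p = 0.00505) for Ddit4, an inhibitor of mTORC1, and -0.21 (adjusted p = 0.0263) for Vegfa, whose call was lost without SNI replicate 1 or 3 or SNI + G15 replicate 1.

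Of 8 genes listed for the mitochondrial unfolded protein response, 2 were called with SNI, both lower. They were Dnaja3 at -0.26 (adjusted p = 0.000334) and Endog at -0.36 (adjusted p = 0.04999) on the log2 scale. The Endog call held in 4 of 16 alternatives and was lost without sham replicate 1 or 2 or any of the SNI replicates. With G15 1 was called, the protease subunit gene Clpp, at 0.22 (adjusted p = 0.0209), a call lost without any of the SNI replicates or SNI + G15 replicate 2. Of 7 sensors and transducers of the unfolded protein response, 3 were higher and 1 lower with SNI. The membrane-bound factor Creb3l2 rose (log2 fold change 0.55 ± 0.06 (SE), adjusted p = 3.97e-05), and the log2 fold change was 0.34 (adjusted p = 5.63e-05) for its relative Creb3. The site proteases that release such factors went in opposite directions, Mbtps2 at 0.28 (adjusted p = 0.00816) and Mbtps1 at -0.15 (adjusted p = 0.0136). The Mbtps1 call was lost without SNI replicate 2, and the Mbtps2 call with DESeq2 (adjusted p = 0.088). With G15 1 of the 7 was called, Creb3 at 0.20 (adjusted p = 0.0266), and not without any 1 of the SNI replicates.

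Comparing SNI + G15 with sham, 21.4% of tested genes were called higher and 21.9% lower. On the eIF2 list 1 of 18 was higher and 4 lower, with log2 fold changes of -0.39 (adjusted p = 0.00425) for Impact, a GCN2 inhibitor, -0.24 (adjusted p = 0.0152) for Eif2b2 and -0.17 (adjusted p = 0.0229) for Eif2b5. The Eif2b2 call was lost without sham replicate 3 or SNI + G15 replicate 2, and that of Eif2b5 without sham replicate 2 or 3 or SNI + G15 replicate 1 or 2. Eif2ak4, at -0.16 (adjusted p = 0.0636), did not pass. Of the 8 ATF4 partners 6 were higher, with Atf3 at 5.06 (adjusted p = 2.66e-10), Jun at 1.80 (adjusted p = 2.69e-08), Fos at 2.54 (adjusted p = 1.6e-07) and Cebpd at 1.82 (adjusted p = 3.04e-07). Among the serine, one-carbon and proline genes 2 of 13 were higher and 5 lower, with Aldh1l2 at 2.20 (adjusted p = 1.7e-05), Got1 at -0.38 (adjusted p = 0.000207), Cbs at -1.21 (adjusted p = 0.00042) and Mthfd1l at -0.35 (adjusted p = 0.0013).

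Of the 8 transporters 2 were higher than in sham and 1 lower, with Slc1a5 at 1.03 (adjusted p = 0.000249), Slc3a2 at 0.19 (adjusted p = 0.00833) and Slc38a2 at -0.22 (adjusted p = 0.00273) on the log2 scale. Of the 18 tRNA synthetases 3 were higher and 1 lower, with Tars at 0.40 (adjusted p = 0.000227), Hars at 0.19 (adjusted p = 0.0242), Cars at 0.19 (adjusted p = 0.0388) and Iars at -0.43 (adjusted p = 8.53e-05). The Hars call was lost without sham replicate 1 or 3, and the Cars call without any sham replicate or SNI + G15 replicate 2 or 3. Of the 15 further ATF4 targets 6 were higher and 3 lower, with Eif4ebp1 at 1.19 (adjusted p = 2.98e-06), Vegfa at -0.59 (adjusted p = 1.57e-05), the cell death gene Bcl2l11 at 0.55 (adjusted p = 0.00211) and the autophagy gene Map1lc3b at 0.23 (adjusted p = 0.00383). Of the 7 sensors and transducers 3 were higher and 1 lower, with Creb3 at 0.51 (adjusted p = 4.49e-05), Creb3l2 at 0.40 (adjusted p = 0.00568), Mbtps2 at 0.34 (adjusted p = 0.00607) and Mbtps1 at -0.18 (adjusted p = 0.0208). The Mbtps1 call was lost without sham replicate 1 or 3 or SNI + G15 replicate 2 or 3. Of the 8 mitochondrial genes 1 was higher and 2 lower, with Clpp at 0.26 (adjusted p = 0.0243), Dnaja3 at -0.36 (adjusted p = 0.000336) and Dele1 at -0.21 (adjusted p = 0.00724), the Clpp call being lost without sham replicate 1 or 3 or SNI + G15 replicate 2.

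The endoplasmic reticulum chaperones and folding factors changed mainly in 1 direction. Between SNI and sham 13 of 20 were called higher and 1 lower, against 23.3% and 22.4% of tested genes. The median log2 fold change of the 20 genes was 0.29. This list too was chosen with earlier results known. Hspa5 (BiP), the chaperone that holds the stress sensors inactive, measured 281, 278 and 259 CPM in sham and 420.4, 414 and 419.9 CPM in SNI, with a wide gap between the groups (log2 fold change 0.63 ± 0.04 (SE), adjusted p = 5.04e-07). Creld2, a secreted ER stress protein, measured 7.63, 8.51 and 7.25 CPM in sham and 17.8, 15.7 and 16.2 CPM in SNI (log2 fold change 1.09 ± 0.09 (SE), adjusted p = 2.99e-06). Manf, a secreted ER protein with neurotrophic activity, rose (log2 fold change 0.65 ± 0.05 (SE), adjusted p = 3.27e-06), as did the lectin chaperone gene Calr (log2 fold change 0.41 ± 0.03 (SE), adjusted p = 2.78e-06).

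In SNI + G15, 10 of the 20 were called lower than in SNI and 1 higher, where 7.25% of tested genes were called lower, and the median was -0.16. Hspa5 measured 304, 306 and 334 CPM, below every SNI value and above every sham value (log2 fold change -0.41 ± 0.04 (SE), adjusted p = 0.000684). Creld2 measured 12.1, 11.2 and 12.8 CPM (log2 fold change -0.46 ± 0.08 (SE), adjusted p = 0.00587), and the large chaperone gene Hyou1 fell as well (log2 fold change -0.27 ± 0.04 (SE), adjusted p = 0.00341). Sec61b, a subunit of the translocation channel, was the exception and measured 20.8, 22.9 and 21.0 CPM in SNI and 27.5, 27.9 and 29.0 CPM in SNI + G15 (log2 fold change 0.38 ± 0.06 (SE), adjusted p = 0.00396). The number called fell from 11 to 6 without SNI replicate 1 or 2, and to 5 without SNI replicate 3. Hspa5, Creld2, Hyou1 and Sec61b were called in all 16 alternatives. Against sham, 10 of 20 were still called higher and 1 lower in SNI + G15 (median 0.18), where 21.4% and 21.9% of tested genes were. Hspa5 was at 0.19 on the log2 scale (adjusted p = 0.0195), a call lost without sham replicate 3 (adjusted p = 0.0841). Sdf2l1 stood at 0.80 (adjusted p = 6.97e-05), Sec61b at 0.58 (adjusted p = 0.000366), Creld2 at 0.61 (adjusted p = 0.000647) and Manf at 0.38 (adjusted p = 0.00153) on the log2 scale.

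**Figure D5:**
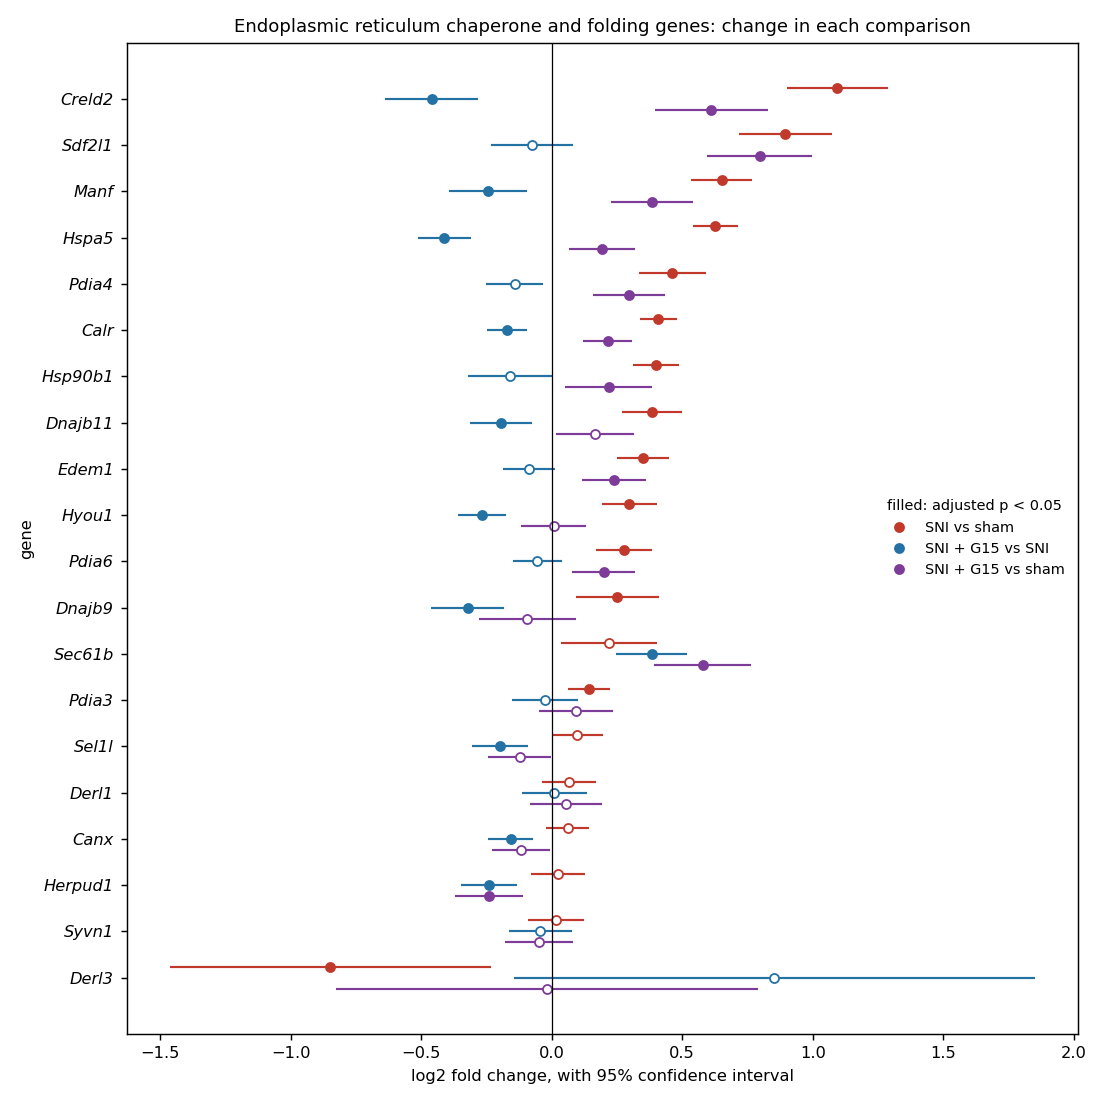
Log2 fold changes of the 20 endoplasmic reticulum chaperone and folding genes in the 3 comparisons, with 95% confidence intervals from edgeR (n = 3 libraries per group) and filled points where the adjusted p was below 0.05. In SNI against sham 13 filled points lie above 0, and in SNI + G15 against SNI 10 lie below.

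Some marker genes of the cells in the tissue also differed between groups. Their counts are to be read against the 23.3% of tested genes called higher and the 22.4% called lower between SNI and sham. Between SNI and sham, all 10 markers of injured neurons were called higher, with a summed level of 295 to 313 CPM in sham and 1690.2 to 1718 CPM in SNI and Npy, Gap43 and Gal highest by mean FPKM over the 9 libraries. Of 12 macrophage markers 11 were called higher (266 to 288 CPM in sham and 541 to 562 CPM in SNI), and of 10 Schwann cell markers 7 were called lower. Of 12 sensory neuron markers 2 were higher and 6 lower (22050.3 to 22739.5 CPM in sham and 19473 to 20052 CPM in SNI). Satellite glia markers were split, with 2 higher and 2 lower of 8, and all 8 erythroid markers were higher (122 to 131 CPM in sham and 278 to 287 CPM in SNI). Of 8 fibroblast markers 2 were higher and 4 lower, of 7 neutrophil markers 5 were higher, and of 5 T cell markers 2 were higher. Endothelial markers had 1 higher and 1 lower of 8. No marker listed in the files was at 0 in all 9 libraries, and those of sensory neurons, satellite glia and Schwann cells, the defining cells of a DRG, were present in every library. The part of these shifts in the changes of the members was not tested.

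Between SNI + G15 and SNI, 7.98% of tested genes were called higher and 7.25% lower. All 8 fibroblast markers were called higher (1411 to 1429.8 CPM in SNI and 1891 to 1938 CPM in SNI + G15) with Dcn, Col3a1 and Col1a1 highest by mean FPKM. Of the Schwann cell markers 7 of 10 were higher, and of 8 erythroid markers 7 were lower (278 to 287 CPM in SNI and 195 to 226 CPM in SNI + G15). Of the 5 tested T cell markers 2 were lower, at a summed level of 8.55 to 9.93 CPM in SNI and 4.59 to 6.56 CPM in SNI + G15. Of 12 macrophage markers 2 were higher (541 to 562 CPM in SNI and 591 to 627 CPM in SNI + G15). Of 10 injured neuron markers 2 were higher (1690.2 to 1718 CPM in SNI and 1732 to 1935 CPM in SNI + G15). Sensory neuron markers had 2 higher and 2 lower of 12, and satellite glia markers 2 higher and 2 lower of 8. Neutrophil markers had 1 called of 7 and endothelial markers 1 higher and 1 lower of 8. The part of these shifts in the falls of Chac1 and the chaperones was not tested. Plasma cells carry much Xbp1 and ER chaperone mRNA. The 5 plasma and B cell markers other than Xbp1 and Derl3 summed to 2.25 to 2.52 CPM in sham, 1.33 to 1.87 CPM in SNI and 1.40 to 1.93 CPM in SNI + G15. Of these 5 only Cd79a passed the filter for testing, and Jchain, also on the list, had no value in these data. The sum therefore lies near the floor. The part of plasma cells in the changes of Xbp1 and the chaperones was not tested.

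The genes whose levels followed 3 of the members most closely over the 9 libraries were found by Pearson correlation of log2(CPM + 1), as a description across libraries that share group and depth. For Atf4 they were Apol3 (r = 0.98), Pcbd1 (r = 0.97) and Rhebl1 (r = 0.97). Those nearest to Atf5 were Acin1 (r = 0.98), Pgd (r = 0.96) and Isoc2b (r = 0.95). Ddit3 was followed most closely by Calm2 (r = 0.96), Tmem199 (r = 0.95) and Rchy1 (r = 0.95). These genes moved little, with ranges over all libraries between 0.21 and 0.65 on the log2 scale.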

How the data were processed

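Total RNA of DRG tissue in 9 libraries was sequenced with paired reads on an Illumina HiSeq. The authors deposited estimated counts and FPKM values per gene and per RefSeq transcript, a gene's FPKM being the sum over its transcripts. The counting tool is not given in the sources used here. The labels name the mouse builds GRCm38 and mm10 and an extraction from macrophages, whereas tissue, organism and gene identifiers are those of rat DRG. Tables of the authors' own comparisons, of TPM and of correlations were not used. Columns headed Control were taken as sham.

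The estimated counts that the authors deposited were brought to whole numbers and compared by the quasi-likelihood method of edgeR 4.0.16 in R 4.3.3 after TMM scaling, with only the groups compared in a fit, over genes or transcripts of at least 1 FPKM in at least 1 of 9 libraries. SE came from the quasi-likelihood F. Alternatives used RLE, upper-quartile or no scaling, other filters, DESeq2 1.42.0 (the study's tool), limma 3.58.1 on log2(FPKM + 1 or 0.1), a replicate block, all libraries in 1 fit and each library left out. The fits were tested on simulated data with known changes. Of 300 promoter bases, 250 lie before the start site. The members and lists were chosen with earlier results of these data known. From each list, the up to 4 called genes with the smallest adjusted p per comparison are named, and Hspa5, Eif2ak3, Eif2ak4 and Atf3 whatever their values. Motif genes are named by their match, and marker genes by their FPKM. Sources differ on the number of rats per library, so p-values measure the spread between these libraries. The summed level of the Schwann cell markers is not reported here.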

Additional observations from a re-analysis of the deposited data

How the results depend on the processing

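In SNI against sham, Chac1, Psat1, Trib3 and Xbp1 kept direction and call in all 16 alternatives, and in SNI + G15 against sham these 4 and Ppp1r15a did. Of 480 log2 fold changes of members under an alternative, 412 kept direction and side of the threshold, 48 lost the call and 8 gained it. The direction turned in 12, none of them called. In SNI + G15 against SNI, leaving out 1 library gave -0.063 to 0.0849 for Atf5, turned without SNI replicate 2 or SNI + G15 replicate 3, and -0.0742 to 0.182 for Ddit3, turned without SNI + G15 replicate 3. It gave -0.149 to 0.13 for Trib3, turned without SNI replicate 3 or SNI + G15 replicate 1 or 3, and Trib3 also turned with library totals only (-0.0112) and with limma at either pseudocount (-0.00492 and -0.00556). In SNI + G15 against sham, Ddit3 ran from -0.19 to 0.0613, turned without SNI + G15 replicate 1 or 2, and turned with library totals only (0.0038).

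Members called between SNI and sham numbered 8, 6 with DESeq2, 5 with all 9 libraries in 1 fit and 5 to 7 with 1 library left out. Between SNI + G15 and SNI they numbered 2, 1 with RLE, no filter, library totals only or limma, 0 with DESeq2 and 0 to 1 with 1 library left out. Between SNI + G15 and sham 6 to 8 of 10 were called throughout. Member transcripts called in SNI + G15 against sham were 3, 1 with no filter and 1 with any library left out, and in SNI against sham 2 to 3 with 1 library left out. All genes called between SNI + G15 and SNI numbered 2179, and 893 to 2333 with 1 library left out. Libraries left out leave fewer samples. The cause of the other differences was not tested.

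The replicate numbers did not pair the libraries: same-numbered deviations correlated at -0.13 to 0.07, 0 of 9 pairs above 0.1, and in 4 of 18 cases a library correlated best with its own number. With the replicate block 1292 genes were called between SNI + G15 and SNI (2179 without), 7, 1 and 7 members in the 3 comparisons in the order above, and 1, 0 and 1 member transcripts. Depth limits Trib3, with 14 to 51 counts per library.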
